A study of Mus musculus with 61 samples.

Results

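Quadriceps muscle of wild-type C57BL/6J mice was compared between day 2 and day 1 of recovery from acute exercise, to see which transcripts fade and which appear between these days. The libraries were chosen by their labels: 3 animals at day 2 (mice 13, 14 and 15) and 3 other animals at day 1 (mice 16, 17 and 19), 6 of the 61 bulk polyA RNA-seq libraries of a series on regulatory T cells (Foxp3-expressing cells that restrain inflammation) and the muscle response to exercise. Each animal gave tissue at 1 time, so the comparison is between animals and not within them. Quadriceps of wild-type mice at rest (sedentary mice 5, 6 and 7) and at day 7 of recovery (mice 8, 9 and 10) gave the reference levels, with 3 animals each. Tibialis anterior, a shin muscle, from wild-type mice at the same times, and quadriceps of diphtheria toxin-treated Foxp3DTR- mice (without the toxin receptor that the series uses to deplete Foxp3-expressing cells), at rest and at day 1, were used for comparison. The labels used here give no exercise mode, age, sex or hour of tissue collection for these mice.

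Exercise pulls on the sarcomere, the contractile unit of the muscle fibre, and can unfold its proteins. Muscle answers with strain-sensing and repair proteins at the Z-disc, which anchors the thin filaments, and with chaperones that hold or refold damaged proteins. In the days after exercise, connective tissue remodelling, immune cell entry and metabolic adjustment are known to follow. Whole-muscle RNA is dominated by the fibres, and in such tissue fewer cells of a type cannot be told apart from less RNA per cell.

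The 6 libraries held 7188880 to 8863788 counts each, so that 3 counts corresponded to 0.338 to 0.417 CPM (counts scaled to a common library total). Between 18705 and 20476 genes had a count in each, and 4.13 to 4.71% of counts came from the mitochondrial genome. The labelled tissue matched its markers: 12 myofibre genes summed to 219000 to 230000 CPM at day 1 and 224000 to 231000 CPM at day 2. Correlations of log CPM were 0.937 to 0.949 within day 1 or day 2 and 0.938 to 0.948 across the 2 days, so overall profiles were about as alike between the days as within a day. Mouse 16 at day 1 had the highest level of many of the genes described next.

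Of 13062 genes tested with edgeR's quasi-likelihood test, 14 differed between day 2 and day 1 at an adjusted p under 0.05, which is 0.107% of those tested. The 10 that were lower at day 2 were Dnajb1, Xirp1, Hspb1, Ankrd2, Lmcd1, Klhl40, Flnc, Lrrc2, Glul and Ubb. The 4 that were higher were Nmrk2, Ppm1f, Sgk1 and Ankrd23. The lower genes were 0.0766% and the higher genes 0.0306% of all tested, and the median log2 fold change over all genes was -0.004. At an unadjusted p under 0.05 there were 879 genes (6.73%). Day 1 and day 2 libraries did not overlap for any of the 14. Over all genes tested, 5.96% did not overlap with higher day 2 values and 5.65% with lower ones. The 14 were chosen by a test on these same libraries, so their non-overlap is not separate support. The count of 14 fell to 6 without mouse 16 and to 1 (Ankrd23) without mouse 15, and the direction of all 14 was kept in each of these fits. The count was 48 with DESeq2, which called all 14, and 0 when only the 6 libraries entered the edgeR fit, with 740 genes there at an unadjusted p under 0.05.

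**Figure D1:**
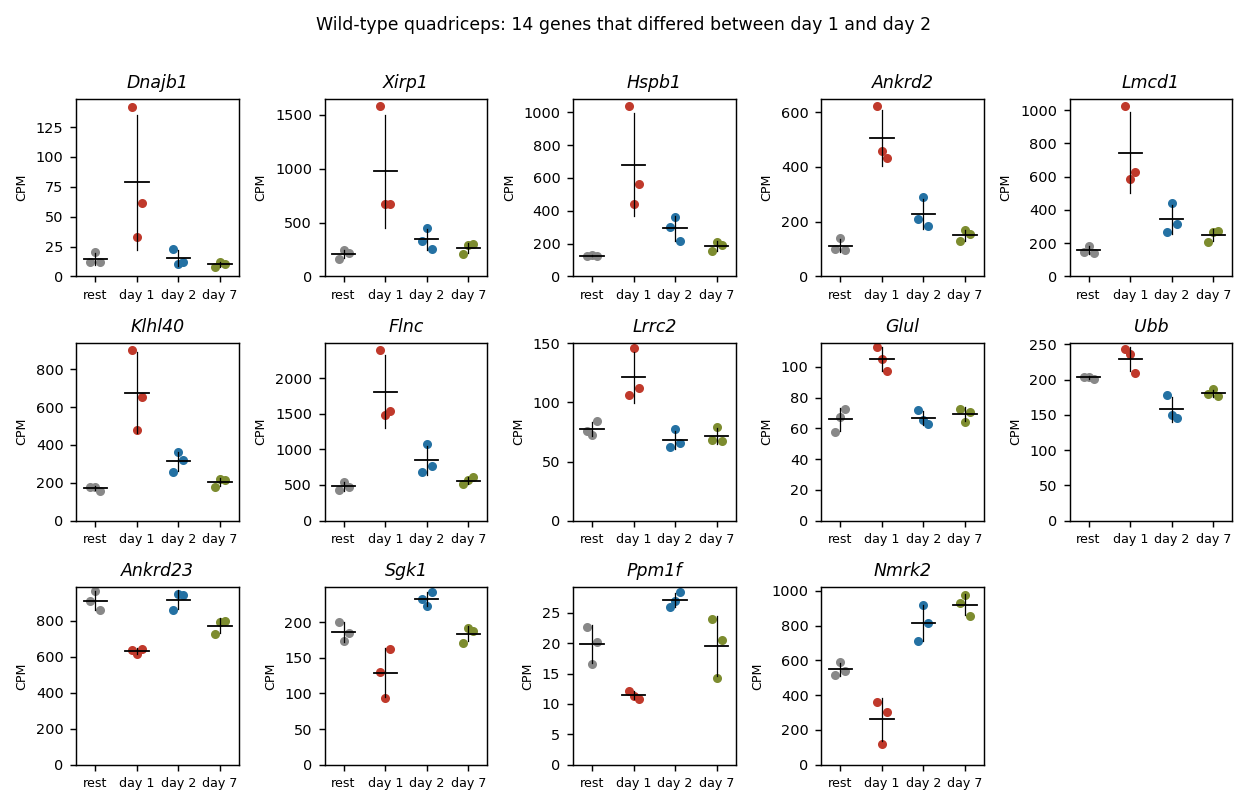
Level in CPM (y axis, from 0) of the 14 genes that differed between day 1 and day 2, in quadriceps at rest and at days 1, 2 and 7 (x axis). Each dot is 1 of 3 mice, horizontal bars are means and vertical bars SD. The 10 lower genes stood high at day 1, and the 4 higher genes had their lowest mean at day 1.

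Of the 10 genes that fell, 4 are in the list of strain and Z-disc genes. Ankrd2 encodes a muscle ankyrin repeat protein that responds to stretch (chr19:42036000-42045110). It stood at 622, 459 and 433 CPM at day 1 and at 211, 289 and 185 CPM at day 2, so that every day 2 mouse was below every day 1 mouse. The log2 fold change was -1.14 ± 0.16 (SE, edgeR adjusted p = 0.00688, n = 3 and 3). Resting mice had 101, 139 and 97.2 CPM and day 7 mice 129.9, 169 and 154 CPM, so all 3 day 2 values were still above all 3 resting values.

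Flnc encodes filamin C, an actin cross-linker of the Z-disc that gathers at sites of sarcomere damage (chr6:29433256-29461883). Its levels were 2395, 1480 and 1538 CPM at day 1 and 685, 1080 and 767 CPM at day 2. Resting levels were 424, 543 and 474 CPM. The groups did not overlap in either step, and the fall from day 1 to day 2 was -1.10 ± 0.16 on the log2 scale (SE, edgeR adjusted p = 0.00688). Xirp1, a filamin-binding repair protein (chr9:120013755-120023598), was at 1578, 673 and 675 CPM at day 1 and 324, 449 and 255 CPM at day 2. Its fall was larger, at -1.50 ± 0.26 (edgeR adjusted p = 0.0288), with mouse 16 far above the other day 1 mice. Without that mouse the Xirp1 value was -0.99 and did not pass the test (edgeR adjusted p = 0.148).

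Lmcd1, a LIM domain protein that acts as a transcriptional cofactor in muscle (chr6:112273758-112330425), had 1024, 584 and 627 CPM at day 1 and 269.7, 442 and 317 CPM at day 2. Klhl40, which stabilises thin filament proteins (chr9:121777607-121783818), had 903, 477 and 651 CPM at day 1 and 259, 361 and 318 CPM at day 2. Both were high in all 3 day 1 mice and lower in all 3 day 2 mice, with log2 fold changes of -1.12 ± 0.19 (edgeR adjusted p = 0.0249) and -1.11 ± 0.16 (edgeR adjusted p = 0.00688). Resting levels were 147, 186 and 139 CPM for Lmcd1 and 180.1, 179.6 and 158 CPM for Klhl40. Day 2 values of both genes lay between rest and day 1 without overlapping either.

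Against rest, in the same fit and with the day 1 and day 2 libraries shared with the comparison above, 76 genes (0.582%) passed at day 1 and 39 (0.299%) at day 2. At day 1, 57 were higher (0.436%) and 19 lower (0.145%), and at day 2, 34 were higher (0.26%) and 5 lower (0.0383%). Without 1 resting mouse (5 or 7) or mouse 16 the first total was 41 to 48, and without mouse 5, 6, 7 or 14 the second was 13 to 20. The falling genes differed in how far they stood from rest at day 2. Ankrd2, Flnc, Lmcd1, Klhl40 and Hspb1 were 1.93 to 2.45 log2 units above rest at day 1 and 0.83 to 1.24 above rest at day 2, and passed the edgeR test on both days. Dnajb1, Lrrc2 and Glul were 2.44, 0.67 and 0.70 above rest at day 1 and at 0.09, -0.16 and 0.04 at day 2, where none passed. Xirp1 was 2.24 above rest at day 1 and 0.74 at day 2, and passed at day 1 only. Ubb did not pass against rest on either day, at 0.19 and -0.34.

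The whole list of 32 strain and Z-disc genes was mixed. In it, 22 were lower and 10 higher at day 2, with 4 called lower, 1 called higher and a median log2 fold change of -0.15. Csrp3 (muscle LIM protein, a Z-disc stretch sensor) and Ankrd1 (the cardiac ankyrin repeat protein) had among the largest values against rest, and did not pass between the days. Csrp3 was at 788, 642 and 708 CPM at day 1 and 336, 612 and 323 CPM at day 2, against 42.5, 77.1 and 59.3 CPM at rest. Its log2 fold change between the days was -0.75 ± 0.23 (edgeR adjusted p = 0.44), although the days did not overlap. Ankrd1 was at 168, 90.6 and 77.5 CPM at day 1 and 48.7, 82.4 and 53.7 CPM at day 2, against 3.78, 5.65 and 4.15 CPM at rest. Its days overlapped, and the value was -0.86 ± 0.28 (edgeR adjusted p = 0.513).

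Other genes of the list showed little difference of the mean between day 1 and day 2 while both stood above rest. Mustn1, a small nuclear protein of regenerating muscle, was at 599, 385 and 446 CPM at day 1 and 294, 638 and 479 CPM at day 2, against 37.1, 37 and 48.9 CPM at rest. The day 1 and day 2 ranges overlapped almost whole, with a log2 fold change of -0.02 ± 0.26 (SE). Fhl1, a LIM protein of the sarcomere, was at 1954, 1958 and 2004 CPM at day 1 and 1924, 2611 and 1828 CPM at day 2, against 611, 839 and 732 CPM at rest, and differed by 0.10 ± 0.13. Mybph, a thick filament-binding protein, had a higher mean at day 2, with 219, 192 and 266 CPM at day 1 and 273, 255 and 337 CPM at day 2, with a value of 0.35 ± 0.17 that did not pass (edgeR adjusted p = 0.739). Against rest, Mustn1, Fhl1, Mybph, Csrp3 and Ankrd1 passed the edgeR test on both days.

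**Figure D2:**
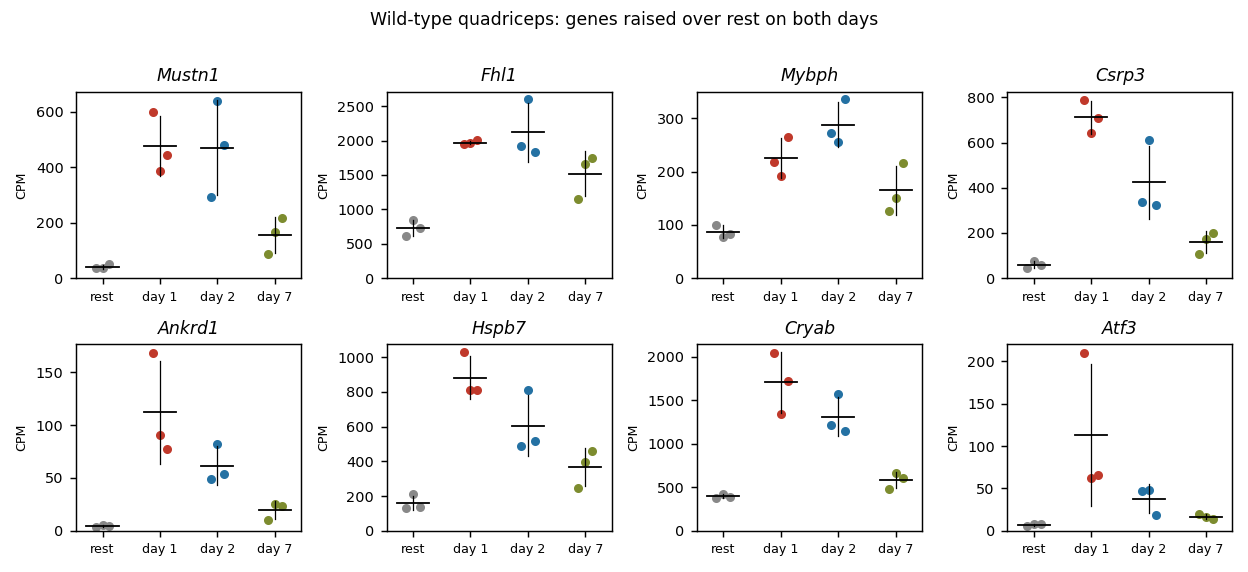
Level in CPM (y axis, from 0) of 8 genes that passed the test as higher than rest on both day 1 and day 2, in quadriceps at rest and at days 1, 2 and 7 (x axis). Dots are mice (n = 3 each), horizontal bars means and vertical bars SD. Mustn1, Fhl1 and Mybph had overlapping day 1 and day 2 values, and Atf3 had its highest value in mouse 16.

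Most chaperone genes had lower levels at day 2. Of 28 chaperone genes, 23 were lower and 5 higher at day 2, 2 were called lower and none higher by edgeR, DESeq2 added Bag3, and the median log2 fold change was -0.33 (-0.20 without mouse 16). Dnajb1, an Hsp40 co-chaperone that activates Hsp70 (chr8:83608193-83612653), was at 142, 33.1 and 61.5 CPM at day 1 and 23.1, 10.4 and 12.2 CPM at day 2. Resting mice had 11.8, 20.1 and 12.2 CPM, so day 2 overlapped rest and not day 1. Its log2 fold change of -2.35 ± 0.41 (edgeR adjusted p = 0.0288) corresponds to a level 5.11-fold higher at day 1. Without mouse 16 the value was -1.64 and did not pass (edgeR adjusted p = 0.208).

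Hspb1 encodes the small heat shock protein Hsp25, which binds unfolding proteins and filaments (chr5:135887919-135889563). It was at 1037, 441 and 566 CPM at day 1 and 301, 364 and 215 CPM at day 2, against 126, 129.7 and 123 CPM at rest. Day 2 was thus below day 1 and above rest without overlap, with a log2 fold change of -1.21 ± 0.22 (edgeR adjusted p = 0.0445). Its adjusted p was the highest of the 14, and the call was lost in 4 of the 6 fits that leave out 1 of these libraries. Without mouse 16 the value was -0.80.

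The other small heat shock proteins did not pass. Hspb7 was at 1029, 809.6 and 811 CPM at day 1 and 489, 809 and 518 CPM at day 2 (-0.55 ± 0.20, edgeR adjusted p = 0.6). Cryab, the alpha-B crystallin that protects desmin and Z-disc proteins, was at 2048, 1343 and 1727 CPM and then 1219, 1574 and 1148 CPM (-0.38 ± 0.13, edgeR adjusted p = 0.561). Both passed against rest at day 2, where Hspb7 was 1.94 and Cryab 1.74 log2 units higher. Bag3, a co-chaperone of filamin turnover, was at 270, 189 and 172 CPM and then 163, 137 and 119 CPM (-0.59 ± 0.14, edgeR adjusted p = 0.237). Its partner Hspb8 went from 2245, 1341 and 1498 CPM to 1253, 1274 and 1184 CPM (-0.45 ± 0.12, edgeR adjusted p = 0.352). For Bag3 and Hspb8 every day 2 mouse was below every day 1 mouse. The inducible Hsp70 gene Hspa1a, named here after its value was seen, had a fold change close to that of Dnajb1, at -2.43 ± 0.68 (edgeR adjusted p = 0.368), and shares near-identical sequence with Hspa1b (-2.46 ± 0.97), so that reads may be split between them.

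Ubb, a polyubiquitin gene that supplies tags for protein breakdown (chr11:62551171-62553213), fell from 243, 236 and 210.1 CPM to 179, 150 and 146 CPM. Resting mice had 204, 204 and 201 CPM, so day 2 lay below rest as well as below day 1. The log2 fold change between the days was -0.54 ± 0.10 (edgeR adjusted p = 0.0334), and counts of Ubb are uncertain because near-identical ubiquitin repeats and pseudogenes can share its reads. Of 31 proteasome subunit genes, 24 were lower and 7 higher at day 2, none passed, and the median was -0.09 (-0.05 without mouse 17, -0.13 without mouse 13). Psmd11 (-0.29 ± 0.10) and Psmd8 (-0.28 ± 0.09), both of the regulatory particle, were among those with the lowest p. Glul, glutamine synthetase, which fixes ammonia in muscle (chr1:153899944-153909723), fell from 113, 105 and 97.5 CPM to 71.6, 65.1 and 62.9 CPM, and resting mice had 57.4, 67.3 and 72.7 CPM. Its log2 fold change was -0.66 ± 0.12 (edgeR adjusted p = 0.0361). Lrrc2, a leucine-rich repeat protein (chr9:110951545-110984066), went from 106, 146 and 112 CPM to 62.5, 77.2 and 66 CPM, with -0.83 ± 0.13 (edgeR adjusted p = 0.0225). Glul and Lrrc2 at day 2 thus overlapped their resting ranges.

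Promoter sequences are shown for Hspb1 and Lmcd1, a chaperone and a strain gene that fell together and whose windows hold the letters bound by heat shock factor and by serum response factor. Each window is the 250 bases before the most upstream RefSeq start (GRCm38.p6), read 5′ to 3′ on the plus strand. It overlaps no annotated exon. For Hspb1 (chr5:135887669-135887918) the capitals mark the 2 matches to a 2-unit heat shock element at -117 and -97 from the start and 1 MCAT match at -49.
Hspb1: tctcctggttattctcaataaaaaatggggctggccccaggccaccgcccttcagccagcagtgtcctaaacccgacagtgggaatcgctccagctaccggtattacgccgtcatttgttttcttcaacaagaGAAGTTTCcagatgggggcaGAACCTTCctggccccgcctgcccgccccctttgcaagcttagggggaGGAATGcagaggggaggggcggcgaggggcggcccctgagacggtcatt
For Lmcd1 (chr6:112273508-112273757) the capitals mark a CArG box at -215, the motif known for serum response factor.
Lmcd1: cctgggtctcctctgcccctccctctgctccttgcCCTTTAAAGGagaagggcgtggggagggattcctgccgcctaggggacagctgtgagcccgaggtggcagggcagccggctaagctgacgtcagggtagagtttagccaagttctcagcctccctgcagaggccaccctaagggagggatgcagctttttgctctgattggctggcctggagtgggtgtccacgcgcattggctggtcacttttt

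RefSeq promoters of full length were found for 9 of the 10 genes that fell (all but Xirp1) and for the 4 that rose. The 2-unit heat shock element, GAANNTTC or TTCNNGAA on either strand, was in Hspb1 and Klhl40 of those 9, in 10.3% of the 9840 promoters of genes tested and in 13% of all 27025 RefSeq promoters. In the chaperone list 9 of 22 promoters held it (40.9%). The 3-unit element, which is the 2-unit one with another inverted unit 2 bases on, was in none of the 9 and in 0.366% of tested promoters. The CArG box was only in Lmcd1 of the 9, against 1.16% of tested promoters, and MCAT (CATTCC, the TEAD motif) only in Hspb1, against 10.7%. The sequence TGACG, bound by cAMP response factors, was in Dnajb1, Hspb1 and Lmcd1, against 27.3%. The MEF2 sequence CTAAAAATA was in none of the 9 and the glucocorticoid palindrome in none of the 9840. The windows of Nmrk2, Ppm1f, Sgk1 and Ankrd23 held no match to any of the motifs searched, and other starts of these genes were not searched. Some windows lie in exons annotated by GENCODE: all 250 bases for Ankrd23 (in its own exon), Klhl40 and Glul (in exons of other genes), 121 for Ubb, 47 for Dnajb1, 27 for Ankrd2 and 14 for Nmrk2. These are matches of letters in a short window, and no binding was measured.

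All 4 genes that rose had a day 1 mean below rest. For Ankrd23 the day 2 values overlapped rest, and for Nmrk2, Sgk1 and Ppm1f they lay above it. Ankrd23, another stretch-responsive ankyrin repeat protein and a relative of Ankrd2 (chr1:36530188-36536883), was at 639, 615 and 643 CPM at day 1 and 857, 951 and 944 CPM at day 2, with 907, 964 and 862 CPM at rest. Day 1 was tight and below every other mouse, and day 2 overlapped rest. The log2 fold change of 0.53 ± 0.07 (edgeR adjusted p = 0.00306) was the smallest of the called changes and had the lowest adjusted p, and it passed in all 6 fits that leave out 1 library. Ankrd2 and Ankrd23 thus moved in opposite directions between the same mice.

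Nmrk2, the muscle nicotinamide riboside kinase that makes NAD (chr10:81198170-81202051), changed most among the rising genes. It was at 358, 121 and 302 CPM at day 1 and 710.3, 917 and 817 CPM at day 2, with 519, 591 and 539 CPM at rest and 929, 973 and 854 CPM at day 7. All day 2 and day 7 mice were above all resting mice, and all day 1 mice below them. The log2 fold change between the days was 1.65 ± 0.24 (edgeR adjusted p = 0.00688), a 3.13-fold difference. Against rest it was -1.06 ± 0.23 at day 1 and 0.59 ± 0.23 at day 2, and neither passed (edgeR adjusted p = 0.0502 and 0.442).

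Sgk1, a serum- and glucocorticoid-regulated kinase that opposes muscle wasting (chr10:21882184-21999903), was at 131, 94 and 163 CPM at day 1 and 232, 222 and 242 CPM at day 2. Resting mice had 201, 173 and 185 CPM, and the 3 ranges did not overlap. The log2 fold change was 0.84 ± 0.14 (edgeR adjusted p = 0.0278). Ppm1f, a phosphatase that acts on CaM kinase II (chr16:16896469-16927364), was at 12.2, 11.3 and 10.8 CPM at day 1 and 26, 26.9 and 28.4 CPM at day 2, with 22.7, 16.5 and 20.2 CPM at rest. Its value was 1.24 ± 0.22 (edgeR adjusted p = 0.0288), and it passed in none of the 6 fits that leave out 1 library, with log2 fold changes there of 1.21 to 1.27. Neither Sgk1 nor Ppm1f passed against rest on either day.

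Ide, the insulin-degrading enzyme, was at 101, 139 and 145 CPM at day 1 and 203, 221 and 200.2 CPM at day 2, with 120.1, 97 and 113 CPM at rest. For Ide day 2 stood above all other wild-type quadriceps libraries, but the step from day 1, 0.69 ± 0.13, missed the threshold (edgeR adjusted p = 0.0579), while that from rest passed (0.93 ± 0.13, adjusted p = 0.0027). Tmem25, a membrane protein, went from 13.4, 14.9 and 16.7 CPM to 24.9, 28.1 and 25.4 CPM (0.80 ± 0.19, edgeR adjusted p = 0.188). Angptl2, a secreted angiopoietin-like protein, went from 61.4, 51.8 and 62.3 CPM to 102, 83.8 and 77.2 CPM (0.59 ± 0.13, edgeR adjusted p = 0.179). Both were higher in all 3 day 2 mice and did not pass with edgeR. Atg16l2 (1.19 ± 0.27) and H60b (1.10 ± 0.25) likewise did not pass, and Foxo6os (1.00 ± 0.20, edgeR adjusted p = 0.0944) is antisense to Foxo6, from which its reads cannot be told apart where the 2 overlap because the strand setting is not given. DESeq2 called all 6 of these genes as higher at day 2. Against rest, H60b and Foxo6os passed as lower at day 1 (-1.29 and -1.01, edgeR adjusted p = 0.0215 and 0.0231). At day 2 both were near rest, at -0.19 and -0.01.

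Early response genes were mostly lower at day 2, with no call by edgeR and 4 by DESeq2 (Fos, Ier2, Cdkn1a and Ccn1). Of 24 tested, 21 were lower and 3 higher and the median log2 fold change was -0.37 (-0.56 without mouse 15). Atf3, a stress-induced transcription factor, was at 209.7, 62.3 and 66.4 CPM at day 1 and 47.3, 47.9 and 18.4 CPM at day 2, against 5.88, 7.39 and 8.43 CPM at rest (-1.56 ± 0.38, edgeR adjusted p = 0.245). All day 2 values were below day 1 and above rest. Fos, the AP-1 subunit, was at 47.8, 9.4 and 17.8 CPM and then 6.25, 7 and 4.66 CPM (-2.05 ± 0.48, edgeR adjusted p = 0.193), which overlaps the resting 11.5, 9.28 and 3.5 CPM. Ier2 (-1.39 ± 0.31) and the cell cycle inhibitor Cdkn1a (-1.08 ± 0.24) did not pass with edgeR either. All 3 day 2 values of both genes lay below rest, with Cdkn1a at 12.6, 13.6 and 7.25 CPM at day 2 against 20.01, 20 and 20.8 CPM at rest. Among endoplasmic reticulum stress genes 11 were lower and 11 higher, and the lowest p belonged to Atf4 (-0.53 ± 0.12) and Dnajb9 (-0.64 ± 0.15), neither of which passed with edgeR and both of which DESeq2 called.

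**Figure D3:**
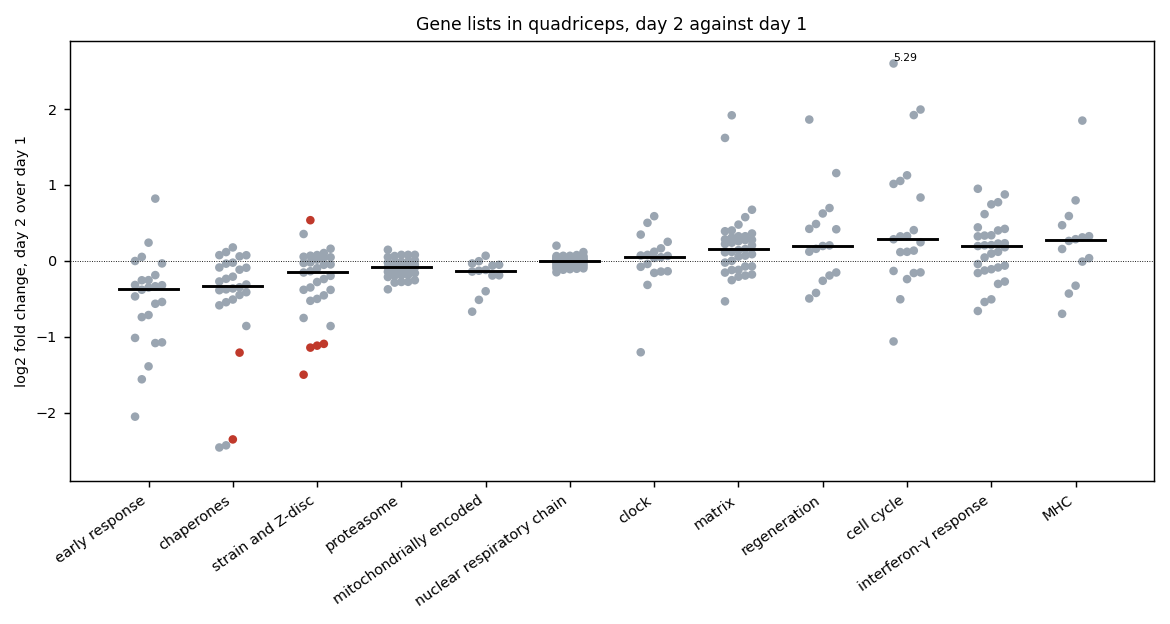
Log2 fold change of day 2 over day 1 (y axis) for each tested gene of 12 lists (x axis). Each dot is a gene, black bars are list medians, red dots passed the edgeR test, and 1 gene beyond the axis is drawn at its edge with its value. Of these 12, medians were lowest for early response genes (-0.37) and chaperones (-0.33), and the nuclear respiratory chain lay at 0.

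Growth-brake and protein breakdown genes were lower more often than higher (17 of 22, median -0.13, between -0.22 without mouse 14 and -0.08 without mouse 19), and antioxidant genes likewise (18 of 25, median -0.09), with no call in either by edgeR. DESeq2 called Mstn in the first and Txnrd1 in the second. Myostatin (Mstn), the growth inhibitor, was at 88.2, 71.4 and 70.8 CPM at day 1 and 59, 46.9 and 50.4 CPM at day 2, with no overlap and a value of -0.56 ± 0.13 (edgeR adjusted p = 0.193). Fkbp5, a glucocorticoid target, had -1.03 ± 0.31 (edgeR adjusted p = 0.44). The autophagy receptor Sqstm1 went from 1510, 1748 and 1351 CPM to 1238, 1301 and 1232 CPM (-0.29 ± 0.08, edgeR adjusted p = 0.315). Of the antioxidant enzymes, Srxn1 had -1.24 ± 0.34 and thioredoxin reductase Txnrd1 -0.72 ± 0.18, and neither passed with edgeR.

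Extracellular matrix genes gave no call, and 25 of 37 were higher at day 2 and the median was 0.15 (0.09 without mouse 14, 0.10 without mouse 17 and 0.23 without mouse 16). Postn, the matricellular protein periostin, was at 16, 7.43 and 14.2 CPM at day 1 and 33.3, 64.9 and 17.5 CPM at day 2 (1.62 ± 0.47, edgeR adjusted p = 0.409). Col3a1, a fibrillar collagen chain, went from 327, 211 and 250.1 CPM to 337, 539 and 381 CPM (0.67 ± 0.18, edgeR adjusted p = 0.326). In both, mouse 14 was the highest and all day 2 mice exceeded all day 1 mice. The collagen VI chains Col6a3 (0.40 ± 0.14) and Col6a1 (0.32 ± 0.13) had smaller values. Markers of fibroblast-lineage cells had values in the same direction, 11 of 17 higher with a median of 0.15. They summed to 2300 to 2630 CPM at day 1 and 2240 to 2790 CPM at day 2. Col3a1, the highest of these markers by fold change, is in both lists, so the 2 directions are not separate results. The part of these cells in the matrix values was not tested.

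Antigen presentation and interferon-γ response genes were also higher more often than lower at day 2, again with no call. This was so for 10 of 14 MHC genes (median 0.27) and for 20 of 31 interferon-γ response genes (median 0.19, and 0.10 without mouse 13). Both lists stood mostly below rest on both days. Of the MHC genes, 0 were above rest at day 1 and 2 at day 2 (medians -0.325 and -0.141). Of the interferon-γ response genes, 6 were above rest at day 1 and 12 at day 2 (medians -0.266 and -0.099). H2-Ab1, an MHC class II chain, was at 33.2, 39.1 and 25.7 CPM at day 1 and 36.7, 50.9 and 48.5 CPM at day 2 (0.47 ± 0.20, edgeR adjusted p = 0.695), with 56.4, 50.7 and 42.6 CPM at rest. The day 1 and day 2 ranges of H2-Ab1 overlapped, and its mean was lowest at day 1. H2-D1, an MHC class I chain with close relatives that can share its reads, had 0.31 ± 0.13, and the immunoproteasome subunit Psmb8 had 0.95 ± 0.33. Ifng itself had 0 counts in all 6 libraries, which allows up to 0.338 to 0.417 CPM in each, and Foxp3 had 0 to 2 counts.

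Immune cell markers gave no call between the days with edgeR or DESeq2. The 25 macrophage and monocyte genes summed to 205 to 278 CPM at day 1 and 223 to 260 CPM at day 2. Cd68, a lysosomal macrophage protein, was at 12.9, 15.6 and 6.96 CPM and then 14.4, 21.6 and 16.7 CPM (0.57 ± 0.33, edgeR adjusted p = 0.833), and passed against rest at day 2 (adjusted p = 0.0418) and not at day 1 (adjusted p = 0.205). Neutrophil genes summed to 85.8 to 105 CPM at day 1 and 39.8 to 94.2 CPM at day 2, with the defining marker Ly6g at 0 in all 6 libraries. T and natural killer cell genes summed to 4.18 to 5.87 CPM and then 5.65 to 7.12 CPM, with Cd3g, Cd8a, Trbc2 and Gzmb at 0. The 10 B cell genes summed to 223 to 296 CPM at day 1 and 170 to 207 CPM at day 2, without overlap. Only 1 of them, Ighm, the immunoglobulin mu heavy chain, passed the low-count filter, so the sums do not show 10 genes falling together. Ighm had -0.45 ± 0.12 (edgeR adjusted p = 0.315). The 15 endothelial genes summed to 762 to 903 CPM and then 714 to 745 CPM, also without overlap, with 8 higher, 7 lower, a median of 0.02 and no call by edgeR, while DESeq2 called Rgcc. Of 16 cytokine and chemokine genes tested, 10 were lower (median -0.40, and -0.20 without mouse 16). The monocyte attractant Ccl2 was at 10.8, 2.44 and 5.84 CPM at day 1 and 2.01, 1.35 and 1.17 CPM at day 2 (-2.06 ± 0.79, edgeR adjusted p = 0.625).

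Proliferation and regeneration genes gave no call between the days with edgeR or DESeq2. Of 21 cell cycle genes, 15 were higher at day 2 (median 0.28, and 0.14 without mouse 13), and of 16 regeneration genes 11 were higher (median 0.20, between 0.08 without mouse 13 and 0.35 without mouse 19). Aurka, a mitotic kinase, was at 6.66, 6.62 and 7.65 CPM at day 1 and at 19, 13.3 and 11 CPM at day 2 (1.05 ± 0.27, edgeR adjusted p = 0.305). Resting mice had 12.5, 18.3 and 19.6 CPM of Aurka, so day 2 overlapped rest. Aurka at day 1 was below rest and passed as lower (-1.25, edgeR adjusted p = 0.049). Ccnb2 had 0, 1 and 0 counts at day 1 and 17, 14 and 22 at day 2 (5.29 ± 1.56, edgeR adjusted p = 0.428). Its day 1 counts were below the floor of 3, so the size of this change is uncertain. Myog, a factor of muscle differentiation, went from 7.9, 10.6 and 11.1 CPM to 18.4, 18.1 and 9.06 CPM (0.62 ± 0.32, edgeR adjusted p = 0.783). Embryonic myosin Myh3 stood at 3.19, 1.35 and 2.07 CPM at day 2 and at 12, 42.1 and 54.7 CPM at day 7, so the larger step of that gene lay after day 2.

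Energy metabolism and fibre type lists had medians between -0.14 (slow fibre genes) and 0.04 (glycolysis genes), and only Nmrk2 was called in them. The 51 nuclear genes of the respiratory chain split into 26 higher and 25 lower, with a median of 0.00, and the 33 mitochondrial ribosome genes into 16 and 17, with a median of 0.00. Of the 13 mitochondrially encoded genes, 12 were lower (median -0.13, and -0.08 without mouse 17 or 14). Of these mt-Cytb, of respiratory complex III, went from 7023, 7589 and 7047 CPM to 6705, 5990 and 6237 CPM (-0.19 ± 0.07, edgeR adjusted p = 0.544), with no overlap. Glycolysis genes were higher in 19 of 28 (median 0.04) and fatty acid genes lower in 19 of 29 (median -0.06). Slow fibre genes were lower in 11 of 14 (median -0.14, and -0.01 without mouse 19), and fast fibre genes split into 6 higher and 8 lower (median -0.03). Of the 23 PGC-1 and metabolic regulator genes 17 were lower. The coactivator Ppargc1a itself was at 56.4, 53 and 38 CPM and then 45.8, 51.8 and 44.5 CPM (-0.05 ± 0.19).

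Some genes were below rest on both days. Car3, the muscle carbonic anhydrase, was at 1262, 1188 and 1058 CPM at day 1 and 986, 1330 and 1346 CPM at day 2, against 2066, 1764 and 1776 CPM at rest. The days overlapped (0.06 ± 0.11), and Car3 passed as lower than rest on both. Ppp1r27, a phosphatase inhibitor subunit, was at 181, 177 and 147 CPM and then 209, 220.4 and 166 CPM, against 267, 334 and 288 CPM at rest, and also passed on both days. Mrln, which encodes the calcium pump inhibitor myoregulin, was at 31.4, 44.1 and 32.7 CPM and then 29.4, 25.9 and 24.7 CPM, against 53.5, 59.3 and 66.4 CPM at rest. Its value between the days, -0.43 ± 0.16, did not pass, and against rest it passed at day 2 only (adjusted p = 0.00219, and 0.0502 at day 1). In the clock list 11 of 18 genes were higher, with Per3 at 0.59 ± 0.24 and Arntl at 0.07 ± 0.22, neither of which passed. The remaining pathway lists (cytoskeleton, satellite cell, autophagy, type I interferon, ribosome biogenesis, lipid synthesis, calcium handling, neuromuscular junction and angiogenesis) held no call and had medians between -0.09 and 0.12.

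The same days in tibialis anterior gave 5 calls among 12692 genes (0.0394%). Nmrk2, Ankrd23 and Car3 were higher (0.0236%) and Plin5 and Fgf1 lower (0.0158%) at day 2. Nmrk2 was at 198, 92 and 157 CPM at day 1 and 445, 429 and 453 CPM at day 2 there (1.57 ± 0.19, edgeR adjusted p = 0.00316), and Ankrd23 at 815, 805 and 830.1 CPM and then 1142, 1130 and 1085 CPM (0.45 ± 0.08, edgeR adjusted p = 0.0493). Both rose between these days in both muscles, and the difference between the muscles was 0.08 ± 0.34 for Nmrk2 and 0.08 ± 0.10 for Ankrd23. Without any 1 of mice 16, 17, 19, 14 or 15 the count in tibialis anterior was 1 or 2. The muscles carry the same mouse numbers, so the 2 sets of libraries are not independent animals if a number marks an animal.

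In tibialis anterior, Flnc and Klhl40 stood high at day 1 in 1 mouse. Flnc was at 516, 1446 and 473 CPM at day 1 in mice 16, 17 and 19, and Klhl40 at 169.8, 359 and 171 CPM, with mouse 17 alone above the resting 571, 568 and 506 CPM of Flnc and 175, 162 and 176 CPM of Klhl40. Ankrd2 had -0.02 ± 0.20 in tibialis anterior against -1.14 in quadriceps, Lmcd1 -0.07 ± 0.23 and Klhl40 -0.09 ± 0.21. Values there were lower for Xirp1 (-0.95 ± 0.26), Dnajb1 (-0.84 ± 0.27), Flnc (-0.77 ± 0.28) and Hspb1 (-0.51 ± 0.27), none of which passed. Like Flnc, Xirp1 and Hspb1 stood well above rest at day 1 there in mouse 17 only. In mice 16, 17 and 19, Xirp1 was at 216, 517 and 187 CPM, against 200, 182 and 216 CPM at rest. Hspb1 was at 105, 266 and 98 CPM, against 105, 87 and 97.4 CPM at rest. For Ankrd2 the day 1 values of 70.6, 105 and 60.1 CPM did not exceed the highest resting value, against 118, 84.5 and 78.1 CPM at rest. A test of the difference between the muscles over all 24 wild-type libraries called 0 of 13819 genes (0%) with edgeR, with 664 (4.8%) at an unadjusted p under 0.05, and 0 with DESeq2, with 723 at that p. Ankrd2 had a difference of -1.12 ± 0.28 there (edgeR adjusted p = 0.9). The lowest unadjusted p there belonged to Gemin5 (-1.28 ± 0.28) and Cstf3 (1.85 ± 0.42), neither of which passed. Without mouse 17, 6 genes were called, all with a lower day 2 over day 1 value in quadriceps: Klhl40 (-1.68 ± 0.18, edgeR adjusted p = 4.68e-05), Cryab, Csrp3, Flnc, Hspb1 and Lmcd1.

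**Figure D4:**
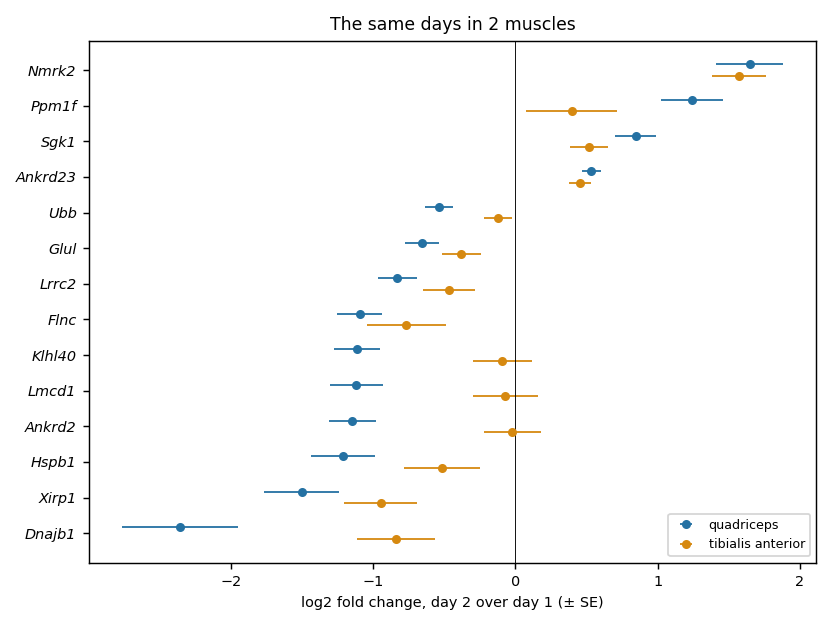
Log2 fold change of day 2 over day 1 with its SE (x axis) for the 14 genes called in quadriceps (y axis), in quadriceps (blue) and tibialis anterior (orange), n = 3 mice a day in each. Nmrk2 and Ankrd23 were nearly equal in both muscles, while Ankrd2, Lmcd1 and Klhl40 lay near 0 in tibialis anterior.

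A separate experiment gave the day 1 response in other mice, the toxin-treated Foxp3DTR- animals (3 at rest and 3 at day 1, no library shared). There 1163 of 14245 genes were called higher at day 1 (8.16%) and 1174 lower (8.24%). The total of 2337 (16.4%) was 1330 to 1408 without resting replicate 1 or day 1 replicate 2 or 3. Of the 10 genes that fell from day 1 to day 2 in wild-type quadriceps, 8 were among the higher ones: Hspb1 (3.04 ± 0.28), Xirp1 (3.20 ± 0.32), Flnc (3.10 ± 0.22), Lmcd1 (2.82 ± 0.27), Ankrd2 (2.59 ± 0.16), Klhl40 (2.25 ± 0.19), Dnajb1 (2.01 ± 0.45) and Lrrc2 (0.98 ± 0.21). Glul (0.36 ± 0.25) and Ubb (-0.45 ± 0.17) were not called. Of the rising genes Nmrk2 was called lower, from 1426, 1438 and 1022 CPM at rest to 313, 169 and 165 CPM at day 1 (-2.83 ± 0.34, edgeR adjusted p = 2.56e-05). Ankrd23 (-0.24 ± 0.16), Sgk1 (0.35 ± 0.22) and Ppm1f (0.59 ± 0.26) were not called. Sgk1 and Ppm1f thus had day 1 means above rest in those mice, and below rest in wild-type quadriceps. Ppm1f was at 8.17, 9 and 10.6 CPM at rest and 18.5, 13.5 and 17.7 CPM at day 1. The resting libraries held 8092740 to 9558470 counts, with 16508 to 16799 genes detected and 7.89 to 12% mitochondrial counts. The day 1 libraries held 9829545 to 14445336 counts, with 21211 to 26596 genes and 5.44 to 6.56%, and the part of this difference in the calls was not tested. Removing a trend on transcript length and GC content changed the split of calls to 591 higher and 1562 lower. All 8 genes and Nmrk2 passed after that step too.

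The genes that were higher at day 1 in those mice were lower at day 2 in wild-type quadriceps only slightly more often than all genes. Of the 1163, 1120 were tested between day 2 and day 1, and 622 were lower (55.5%, against 50.5% of all genes tested), with a median of -0.03 and 8 called lower. Of the 1174 that were lower at day 1 there, 1172 were tested and 623 were higher at day 2 (53.2%, against 49.5%), with a median of 0.01 and Nmrk2 the only call. Among those that had changed by at least 2 log2 units there, 104 of 194 higher genes were lower at day 2 (53.6%, median -0.04), and 11 of 14 lower genes were higher (78.6%, median 0.49).

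The calls between day 2 and day 1 rested on single libraries to different degrees. Without mouse 15 the 13 genes other than Ankrd23 had edgeR adjusted p from 0.0533 (Ankrd2, Klhl40 and Nmrk2) to 0.162 (Hspb1). Without mouse 16, Ankrd2, Ankrd23, Flnc, Klhl40, Lrrc2 and Nmrk2 still passed. Without mouse 17, Glul, Lrrc2, Ppm1f and Ubb were lost. Leaving out mouse 19 lost Glul, Hspb1, Ppm1f and Ubb, and leaving out mouse 14 lost Dnajb1, Glul, Ppm1f and Ubb. Leaving out mouse 13 lost Hspb1, Lmcd1, Lrrc2, Ppm1f, Sgk1 and Xirp1.

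**Figure D5:**
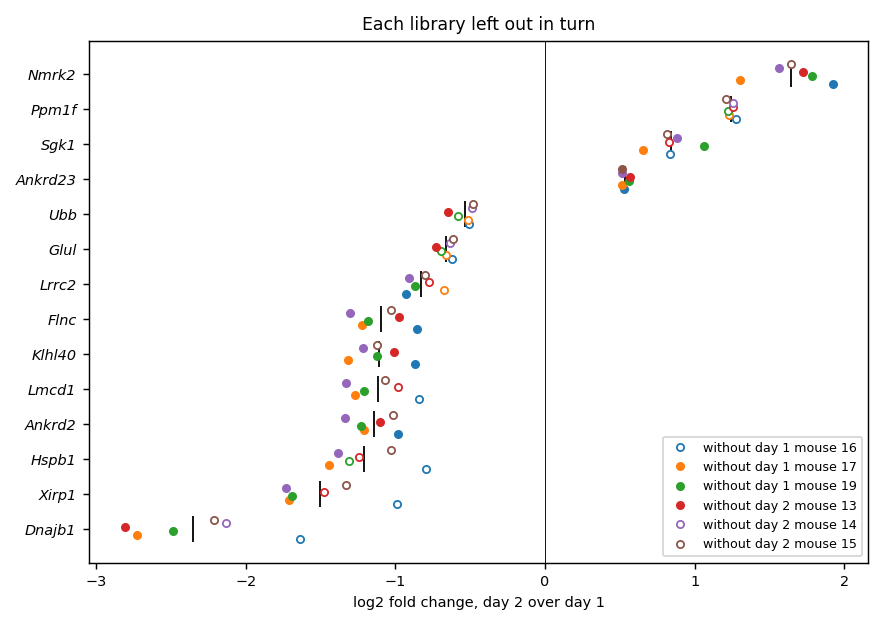
Log2 fold change of day 2 over day 1 (x axis) for the 14 genes (y axis), with all libraries (black ticks) and with each of the 6 quadriceps libraries left out in turn (coloured dots, filled where the edgeR test still passed). No gene crossed 0, Ankrd23 was filled in all 6 fits and Ppm1f in none, and leaving out mouse 16 gave the smallest falls for Dnajb1, Xirp1 and Hspb1.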

How the data were processed

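Whole muscle was frozen and homogenised in TRIzol, and polyA RNA was sequenced by the Immunological Genome Project's low-input protocol, per the labels' protocols. The authors deposited 1 table of raw gene counts (55011 genes, 61 libraries). STAR 2.7.3a, featureCounts and the mm10 build are named in the submitters' processing notes, and the sources used here give no strand or multi-mapping setting. Groups and mouse numbers come from the labels, and each number was taken as 1 animal. Whether muscles with the same number come from 1 animal is not stated.

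All 12 wild-type quadriceps libraries were fitted with edgeR 4.0.16 (R 4.3.3), with TMM scaling and a low-count filter (filterByExpr by group). The filter asked for about 10 counts, at the median library size, in as many libraries as the smallest group holds, and 15 in total. A quasi-likelihood F test on group means was followed by Benjamini-Hochberg adjustment over all genes tested. Genes at an adjusted p under 0.05 were called. SEs are the fold change divided by the square root of F. CPM are the deposited counts scaled to the library total, not corrected for length, so levels are not compared between genes. Tibialis anterior (12 libraries), the muscle-by-day difference (24 libraries) and the acute Foxp3DTR experiment (15 libraries) were fitted the same way. The test was checked on simulated counts.

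Gene lists were described by counts and medians only. The libraries compared, the gene lists and the rule for named genes (the called genes with at least 5 CPM and no overlap, filled to 10 in each direction by p, the 4 members of each list with the lowest p, the largest changes against rest, the 6 lowest p of the muscle-by-day test, and genes fixed by name) were chosen with earlier results of these data known. Floors (3 counts) cover counting error only, while SEs also include the spread between libraries estimated in each fit. Alternatives were DESeq2 1.42.0, limma-voom (limma 3.58.1), other scalings and filters, other sets of libraries, a length and GC trend offset, and leaving out each library. Robust estimation, and the length and GC offset in the Foxp3DTR- mice, were added after seeing the data. Gene positions are from GENCODE vM21 (GRCm38, the build of mm10).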

Additional observations from a re-analysis of the deposited data

How the results depend on the processing

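The 14 calls of day 2 against day 1 became 48 with DESeq2, 96 without a filter on low counts, 0 with only the 6 libraries and 9 with robust estimation (added after seeing the data). They ranged from 1 to 12 when 1 library was left out. All 14 genes kept their direction in each setting run. Calls of day 1 against rest (76) were 162 with DESeq2 and 197 without the filter, and 41 to 79 with 1 library left out. Those of day 2 against rest (39) were 148, 178 and 13 to 35. In tibialis anterior (5) they were 22, 56 and 1 to 4. The muscle-by-day difference (0) gave 12 without the filter, 0 to 6 with 1 mouse left out, and 0 with the mouse number as a replicate block (627 at an unadjusted p under 0.05, against 664). Same-numbered libraries of the 2 muscles correlated at -0.06 to 0.09 in their deviations, and differently numbered ones at -0.085 to 0.039. At days 1, 2 and 7 every same-numbered pair was above every other pair of its day, and at rest this was not so. Whether the numbers pair the muscles was thus not settled. The Foxp3DTR- calls (2337) were 2795 with DESeq2, 2113 without the filter, and 1330 to 2172 with 1 library left out. With 1 library left out, list medians moved by more than the spread between replicates for early response (-0.56 to -0.30), interferon-γ response (0.10 to 0.22), cell cycle (0.14 to 0.35) and cytokine genes (-0.46 to -0.20). Of uncalled genes, 5 changed sign: Mustn1 (-0.29 to 0.22; above 0 without mouse 16 or 13), Fhl1 (-0.063 to 0.20; below 0 without mouse 14), Arntl (-0.27 to 0.27; below 0 without mouse 14, 16 or 17), Car3 (-0.015 to 0.18; below 0 without mouse 15) and Ppargc1a (-0.19 to 0.040; above 0 without mouse 16 or 17). The cause was not tested. Depth limits low genes, since 3 counts are 0.338 to 0.417 CPM.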
